A study of Mus musculus with 10 samples.

Results

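The 10 genes described here, of steroid hormone synthesis and progesterone inactivation, were followed across 3 groups of cultured mouse cells. They include Star (cholesterol transport into mitochondria), Tspo (an outer mitochondrial membrane protein that binds cholesterol), and Cyp11a1 and Fdx1 (side chain cleavage). The others are Hsd3b1 and Hsd3b6 (the step to progesterone), Hsd17b1, Srd5a1 and Hsd11b1 (conversion of later steroids) and Akr1c18 (inactivation of progesterone). All of these genes were chosen by name, as every array feature whose gene symbol is on that list. The 10 genes have 21 features, all of which passed the filter on dim features, among 16726 genes tested in the whole series. Hsd11b1 has 10 features, Star and Fdx1 have 2 each, and the other 7 genes have 1 each. Cyp11a1 and Hsd3b1 passed the filter through the 2 MEF arrays only.

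The study compared induced embryonic Sertoli-like cells (ieSCs) with mouse embryonic fibroblasts (MEFs). Sertoli cells are the somatic cells that surround germ cells in the testis tubule. Total RNA was measured on 10 Agilent arrays with Cy3 label, with 1 RNA per array. The 4 arrays of TTF-derived ieSCs held cells converted from female tail tip fibroblasts (TTFs), the 4 arrays of MEF-derived ieSCs held cells converted from MEFs, and 2 arrays held MEFs as the control. All 3 groups carried the congenic R26-M2rtTA allele in homozygous form, which expresses the doxycycline-dependent transactivator. Both kinds of ieSC carried transgenes for Nr5a1, Wt1, Dmrt1, Gata4 and Sox9, and the labels list no transgene for the MEFs. All cells had spent 2 weeks in medium without doxycycline. Each kind of ieSC has a name 1 and a name 2 in the labels and the MEFs have 1 name, and the 2 arrays under each of these 5 names are called a and b here. The labels do not say whether the arrays of a name, or names 1 and 2, came from separate cultures or animals, so the p-values measure the spread between these arrays, part of which may be technical. TTF arrays are not used here, so for TTF-derived ieSCs the starting cell and the conversion cannot be told apart when they are set against MEFs.

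Steroid hormones are made from cholesterol, which StAR carries to the inner mitochondrial membrane, where CYP11A1 cuts off its side chain with electrons passed on by ferredoxin. The product, pregnenolone, leaves the mitochondrion and is oxidised to progesterone by a hydroxysteroid dehydrogenase of the Hsd3b family. In the testis this pathway belongs above all to Leydig cells, while Sertoli cells respond to androgen and can convert steroids made elsewhere. AKR1C18 reduces progesterone to a form with little activity at its receptor, and in rodents it is best known from the regressing corpus luteum of the ovary.

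The largest difference in the set was in the gene for progesterone inactivation. Akr1c18 was 10.12 ± 0.60 log2 units higher in ieSCs than in MEFs (limma estimate ± standard error, SE), rank 2 from the highest among the 16726 genes. Cyp11a1 and Hsd3b1, which carry out the steps from cholesterol to progesterone, lay at the dim end of all 8 ieSC arrays and well above it in MEFs. Tspo and Srd5a1 were higher in both kinds of ieSC, and Fdx1 and Hsd17b1 were lower in both. Hsd11b1 moved in opposite directions in the 2 kinds of ieSC.

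Against MEFs, 3 of the 10 genes were higher in ieSCs, 5 were lower and 2 did not pass the test (limma adjusted p under 0.05). Over all genes tested, 27.3% were higher and 24.4% lower in the same comparison, so calls were common on these arrays. Of the 5 lower genes, Cyp11a1 and Hsd3b1 had entered the test through the MEF arrays only, where they are high. The median log2 difference was -0.85 over the 10 genes and 0.09 over all genes. The first of these medians includes Cyp11a1 (-5.83) and Hsd3b1 (-6.03), so it does not show a fall of the set as a whole. In TTF-derived ieSCs against MEFs, 3 were higher and 6 lower, with 24.6% of all genes higher and 22.8% lower. In MEF-derived ieSCs against MEFs, 4 were higher and 4 lower, with 28.5% of all genes higher and 25.0% lower. Between the kinds of ieSC, 4 of the 10 genes were lower in TTF-derived than in MEF-derived ieSCs and the other 6 did not pass, while 20.7% of all genes were lower and 17.8% higher. Hsd3b1, 1 of these 4, was dim in both kinds of ieSC. It did not pass with dim values raised to the 40th percentile, which leaves 3. With the arrays of each name averaged 2 passed, Hsd11b1 and the dim Hsd3b1, while Star and Akr1c18 did not. The 3 comparisons with MEFs share the same 2 MEF arrays, which carry 1 name, so the spread between names came from the ieSCs alone.

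**Figure D1:**
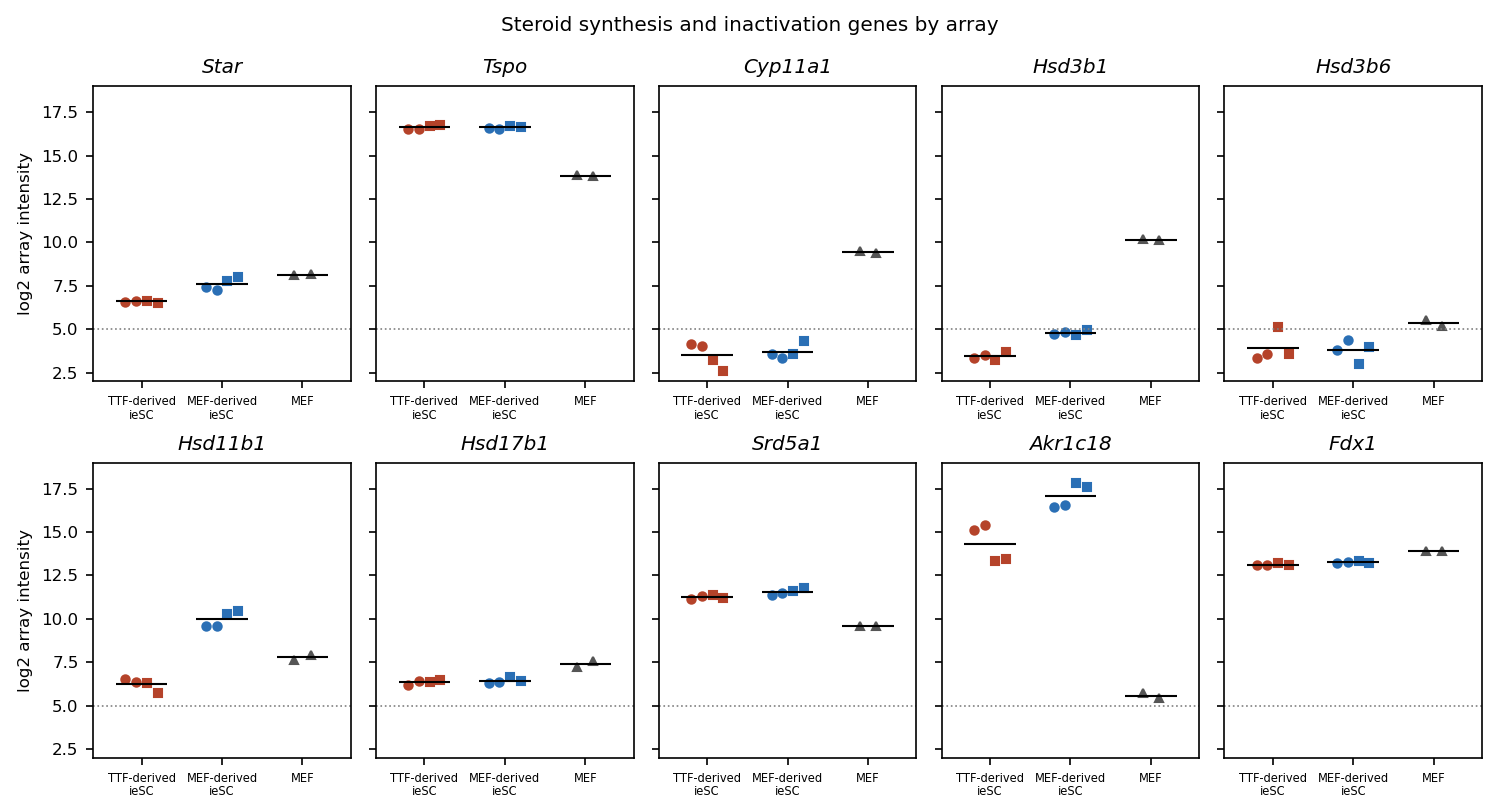
Log2 array intensity (vertical axis) of the 10 genes on each array, with TTF-derived ieSCs in red, MEF-derived ieSCs in blue and MEFs in grey; circles are arrays of name 1, squares arrays of name 2, triangles MEF arrays, black lines group means and the dotted line the 40th percentile of an array, near 5.0. Akr1c18 lies between 13.35 and 17.82 in ieSCs against 5.46 and 5.71 in MEFs, while Cyp11a1 and Hsd3b1 lie under the dotted line on every ieSC array.

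Levels are deposited log2 intensities, and a level is compared only with the same feature on other arrays. The table has no detection flags, so levels under about 5.0, the 40th percentile of each array, are called dim here, and a difference against a dim level depends on where that floor lies. The cells are bulk cultures, so fewer cells that express a gene and less RNA per cell cannot be told apart.

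The group labels were set against marker lists. Of 12 fetal Sertoli markers, 10 were tested, of which 7 were higher and 2 lower in ieSCs than in MEFs. Over all genes, 27.3% were higher and 24.4% lower. Dhh was 7.23 ± 0.12 log2 units higher (limma adjusted p = 1.13e-09). Sox8 and Cst9, among the higher ones, were dim on both MEF arrays and entered the test through ieSC arrays only. Sox9 was lower, with a difference of -3.46 ± 0.16 (limma adjusted p = 1.79e-07), and the defining markers Amh and Nr0b1 did not pass the filter. Aard, the other lower marker, was dim on all 8 ieSC arrays and entered the test through the MEF arrays only. Of 11 fibroblast markers, 9 were lower in ieSCs. Of these, Fap and Twist1 were dim on all 8 ieSC arrays and entered the test through the MEF arrays only. Col3a1, by contrast, read 17.94 in TTF-derived ieSCs, 18.08 in MEF-derived ieSCs and 17.87 in MEFs. Dcn was higher in TTF-derived ieSCs than in MEFs (1.44 ± 0.45, limma adjusted p = 0.0287) and did not pass in MEF-derived ieSCs (0.45 ± 0.45, adjusted p = 0.454). All 10 macrophage markers were lower in ieSCs, and their summed intensity, as log2, ranged from 11.84 to 12.72 in TTF-derived ieSCs, from 12.74 to 13.20 in MEF-derived ieSCs and from 16.45 to 16.51 in MEFs. On all 8 ieSC arrays 3 of the 10, C1qa, Tyrobp and Laptm5, were dim, so they entered the test through the MEF arrays only. The other 7 were above the dim range on all or nearly all ieSC arrays, such as Csf1r at 9.77 to 11.13 and Itgam at 11.15 to 12.67. The transgene factors, read without separating transgene and native transcripts, were higher in ieSCs for Wt1 (5.60 ± 0.26) and lower for Nr5a1 (-0.68 ± 0.12), Dmrt1 (-0.50 ± 0.14), Gata4 (-1.90 ± 0.26) and Sox9, all with adjusted p under 0.05. For Dmrt1, TTF-derived ieSCs alone did not pass (adjusted p = 0.0783).

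Star was lower and Tspo was higher in ieSCs than in MEFs. Star, whose product delivers cholesterol to the inner mitochondrial membrane, read 6.58, 6.65, 6.65 and 6.54 in TTF-derived ieSCs and 7.43, 7.26, 7.76 and 7.98 in MEF-derived ieSCs, against 8.13 and 8.16 in MEFs. The 3 groups did not overlap and MEFs were highest. The fitted difference of TTF-derived ieSCs from MEFs was -1.54 ± 0.20, a 2.91-fold lower level (adjusted p = 0.000208). In MEF-derived ieSCs the difference of -0.54 ± 0.20 did not pass (adjusted p = 0.0536), while the dimmer of the 2 Star features did (-0.93, adjusted p = 0.0158). Without array 2b of MEF-derived ieSCs the brighter feature passed too (-0.62, adjusted p = 0.0198). Between the kinds of ieSC the difference was -1.0 ± 0.16, a 2.01-fold lower level in TTF-derived ieSCs (adjusted p = 0.00132). With the 2 arrays of each name averaged this difference did not pass (adjusted p = 0.0566), and the dimmer feature gave -0.52 (adjusted p = 0.0906).

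Tspo encodes the translocator protein of the outer mitochondrial membrane, which binds cholesterol and has long been studied in steroid-making cells. It read 16.51, 16.52, 16.70 and 16.74 in TTF-derived ieSCs and 16.57, 16.55, 16.68 and 16.66 in MEF-derived ieSCs, against 13.86 and 13.82 in MEFs. The ieSC groups overlapped and stood apart from the MEFs. The fitted rise was 2.78 ± 0.11 in TTF-derived ieSCs (6.85-fold, adjusted p = 9.23e-08) and 2.77 ± 0.11 in MEF-derived ieSCs (adjusted p = 8.37e-08). The difference between the kinds of ieSC was 0.00 ± 0.09 (adjusted p = 0.993).

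Side chain cleavage was represented by its enzyme and by its electron carrier. Cyp11a1 read 4.16, 4.06, 3.21 and 2.58 in TTF-derived ieSCs and 3.58, 3.37, 3.58 and 4.31 in MEF-derived ieSCs, against 9.48 and 9.39 in MEFs. On every ieSC array it lay within the lowest 26.3% of features, while on both MEF arrays it lay at or above the 74.0 percentile. The fitted difference of ieSCs from MEFs was -5.83 ± 0.46 (adjusted p = 5.87e-06). With every dim value raised to its array's 40th percentile, Cyp11a1 was at least 21.6-fold lower in ieSCs. The difference between the kinds of ieSC, -0.21 ± 0.41, lay among dim values and did not pass (adjusted p = 0.762).

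Fdx1, the mitochondrial ferredoxin that passes electrons to CYP11A1, ranged from 13.08 to 13.21 in TTF-derived ieSCs and from 13.21 to 13.34 in MEF-derived ieSCs, against 13.88 and 13.89 in MEFs. It was lower in TTF-derived ieSCs by a difference of -0.76 ± 0.10 (adjusted p = 0.000301) and in MEF-derived ieSCs by -0.63 ± 0.10 (adjusted p = 0.000822). The other Fdx1 feature gave -0.58 in TTF-derived ieSCs and -0.41 in MEF-derived ieSCs. The kinds of ieSC differed by -0.13 ± 0.09, which did not pass (adjusted p = 0.294).

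Hsd3b1, which in the mouse encodes the main isoform of steroid-making gonadal and adrenal cells, was likewise highest in MEFs. It read 3.36, 3.51, 3.21 and 3.72 in TTF-derived ieSCs and 4.74, 4.82, 4.67 and 4.95 in MEF-derived ieSCs, against 10.20 and 10.11 in MEFs. All 8 ieSC arrays were dim. The fitted difference of ieSCs from MEFs was -6.03 ± 0.20 (adjusted p = 2.54e-08), and with dim values raised to the 40th percentile Hsd3b1 was at least 35.4-fold lower in ieSCs. The fit also gave -1.34 ± 0.18 between TTF-derived and MEF-derived ieSCs (adjusted p = 0.000439), but both groups were dim and the difference was 0.00 with dim values raised. Hsd3b6, its neighbour on chromosome 3 and in the mouse an isoform of steroid-making tissue, ranged from 3.36 to 5.14 in TTF-derived ieSCs and from 3.03 to 4.38 in MEF-derived ieSCs, against 5.53 and 5.20 in MEFs. The MEF arrays were highest, but the difference of -1.50 ± 0.66 did not pass (adjusted p = 0.0954). Without array 2a of TTF-derived ieSCs, the one that read 5.14, it was -1.70 and passed (adjusted p = 0.0153).

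The other Hsd3b genes differed less between ieSCs and MEFs or were dim. Hsd3b2 averaged 13.39 ± 0.06 in TTF-derived ieSCs (SD, n = 4), 13.35 ± 0.03 in MEF-derived ieSCs (n = 4) and 13.56 ± 0.05 in MEFs (n = 2), a difference of -0.19 ± 0.09 that did not pass (limma adjusted p = 0.121). Hsd3b3, Hsd3b4 and Hsd3b5 were dim on every array. Hsd3b7, which acts on bile acid precursors, was higher in ieSCs by 0.79 ± 0.10 (adjusted p = 0.000193), and Nsdhl, of cholesterol synthesis, was lower by a difference of -0.69 ± 0.18 (adjusted p = 0.00974), with adjusted p = 0.0512 in MEF-derived ieSCs alone. The Hsd3b genes are close relatives, and whether a feature also binds a relative's transcript was not tested.

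The promoters of Hsd3b1 and Hsd3b6 are shown because these neighbours are the genes of the set for the step to progesterone. Each is the 250 bases before the transcription start, from RefSeq on GRCm38.p6, on the minus strand of chromosome 3, with a GATA motif in capitals (AGATAA or its reverse complement TTATCT).
Hsd3b1 (chr3:98859795-98860044): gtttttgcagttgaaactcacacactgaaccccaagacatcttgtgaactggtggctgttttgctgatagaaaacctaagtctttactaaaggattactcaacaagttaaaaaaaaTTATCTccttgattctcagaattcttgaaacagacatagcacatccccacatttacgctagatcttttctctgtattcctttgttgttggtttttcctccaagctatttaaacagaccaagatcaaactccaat
Hsd3b6 (chr3:98814444-98814693): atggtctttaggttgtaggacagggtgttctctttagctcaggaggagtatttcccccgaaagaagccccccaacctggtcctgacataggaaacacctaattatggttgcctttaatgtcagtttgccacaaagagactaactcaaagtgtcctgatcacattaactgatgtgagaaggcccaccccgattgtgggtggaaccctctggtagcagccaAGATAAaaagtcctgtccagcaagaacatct
In an alignment of the 2 windows, 126 of 226 aligned positions were identical (55.8%). The motif begins 134 bases before the start in Hsd3b1 and 31 bases before it in Hsd3b6, and 9.99% of 32851 RefSeq mouse windows of this length hold it on either strand. RefSeq windows were matched for 7 of the 10 genes, in 8 windows, and none was available for Star, Tspo and Hsd17b1. An Nr5a1 motif (AAGGTCA or TGACCTT, in 4.08% of all windows) and a SOX motif (AACAAT or ATTGTT, in 9.42%) were in 0 of those 8 windows, and the GATA motif was in 2. A GC box (GGGCGG or CCGCCC, in 32.7% of all windows) was in 3: Fdx1, Srd5a1 and Akr1c18. The motifs do not overlap one another in letters, and a match is a description of the letters only. With so few windows and exact letters searched, a count of 0 says little about such sites.

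The enzymes that convert later steroids behaved differently from one another. Hsd17b1, which reduces estrone to estradiol, ranged from 6.20 to 6.51 in TTF-derived ieSCs and from 6.32 to 6.64 in MEF-derived ieSCs, against 7.26 and 7.60 in MEFs. It was lower in TTF-derived ieSCs by a difference of -1.06 ± 0.20 (adjusted p = 0.00188) and in MEF-derived ieSCs by -0.99 ± 0.20 (adjusted p = 0.00238), and the kinds of ieSC overlapped (-0.07 ± 0.16, adjusted p = 0.794). Srd5a1, a steroid reductase that acts on testosterone and progesterone, ranged from 11.17 to 11.39 in TTF-derived ieSCs and from 11.40 to 11.77 in MEF-derived ieSCs, against 9.59 and 9.58 in MEFs. It was higher in TTF-derived ieSCs by 1.69 ± 0.15 (3.23-fold, adjusted p = 1.46e-05) and in MEF-derived ieSCs by 1.97 ± 0.15 (3.93-fold, adjusted p = 4.20e-06). The difference of -0.28 ± 0.12 between the kinds of ieSC did not pass (adjusted p = 0.105).

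Hsd11b1 separated the 2 kinds of ieSC more than any other of the 10 genes. Its product regenerates active glucocorticoid from its inactive keto form in the endoplasmic reticulum. The brightest feature read 6.54, 6.34, 6.31 and 5.76 in TTF-derived ieSCs and 9.57, 9.60, 10.28 and 10.43 in MEF-derived ieSCs, against 7.64 and 7.93 in MEFs. MEF-derived ieSCs were highest, MEFs came between and TTF-derived ieSCs were lowest, with no overlap. Hsd11b1 was lower in TTF-derived ieSCs than in MEFs by a difference of -1.55 ± 0.35 (adjusted p = 0.00554; 0.0588 with the arrays of each name averaged). It was higher in MEF-derived ieSCs than in MEFs by 2.19 ± 0.35 (4.56-fold, adjusted p = 5.90e-04). Between TTF-derived and MEF-derived ieSCs the difference was -3.73 ± 0.28, a 13.3-fold lower level in TTF-derived ieSCs (adjusted p = 1.2e-05), at rank 88 from the lowest of 16726 genes. The mean of both kinds of ieSC did not differ from MEFs past the threshold (0.32 ± 0.32, adjusted p = 0.455).

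**Figure D2:**
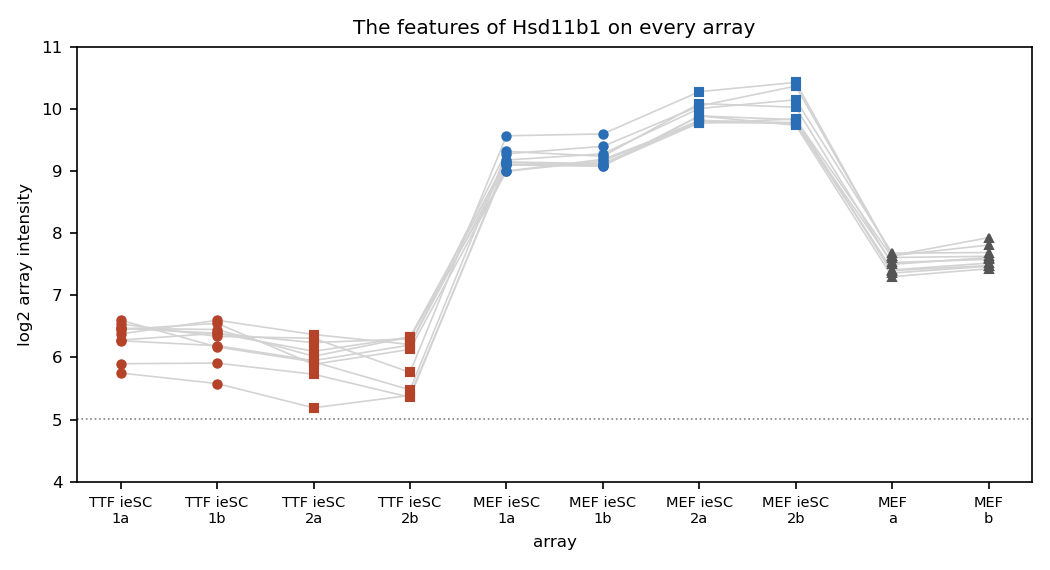
Log2 array intensity (vertical axis) of the 10 Hsd11b1 features on each of the 10 arrays (horizontal axis), with a grey line for each feature; TTF-derived ieSCs are red, MEF-derived ieSCs blue and MEFs grey. All features lie between 5.19 and 6.60 in TTF-derived ieSCs, between 9.0 and 10.43 in MEF-derived ieSCs and between 7.30 and 7.93 in MEFs.

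The plot of the Hsd11b1 features shows the same order of groups in all 10. Their differences ranged from -1.89 to -1.17 for TTF-derived ieSCs against MEFs, from 1.86 to 2.19 for MEF-derived ieSCs against MEFs and from -3.98 to -3.09 between the kinds of ieSC, and all 10 passed in each of these. Features of a gene share the same RNA and are not replicates. H6pd, which supplies the reduced cofactor that HSD11B1 uses in the endoplasmic reticulum, averaged 12.87 ± 0.16 in TTF-derived ieSCs (SD, n = 4) and 11.36 ± 0.20 in MEF-derived ieSCs (n = 4), against 13.18 ± 0.04 in MEFs (n = 2). It was 1.51 ± 0.14 log2 units higher in TTF-derived than in MEF-derived ieSCs (adjusted p = 4.21e-05), a sign opposite to that of Hsd11b1.

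Akr1c18 was set apart in ieSCs of both origins. It read 15.09 and 15.41 on arrays 1a and 1b and 13.35 and 13.44 on arrays 2a and 2b of TTF-derived ieSCs. It read 16.44 and 16.54 on arrays 1a and 1b and 17.82 and 17.58 on arrays 2a and 2b of MEF-derived ieSCs. In MEFs it read 5.71 and 5.46, just above the dim range, at the 46.5 to 49.3 percentile of the array. The 3 groups did not overlap, and MEF-derived ieSCs were highest.

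The fitted rise over MEFs was 8.73 ± 0.65 in TTF-derived ieSCs (426-fold, adjusted p = 4.78e-06), rank 5 among all genes, and 11.51 ± 0.65 in MEF-derived ieSCs (2910-fold, adjusted p = 6.31e-07), rank 1. These folds are ratios of array intensity and rest on a MEF signal close to the floor. Between TTF-derived and MEF-derived ieSCs the difference was -2.77 ± 0.53, a 6.84-fold lower intensity in TTF-derived ieSCs (adjusted p = 0.00324). With the arrays of each name averaged that difference did not pass (adjusted p = 0.0916). Names 1 and 2 differed in opposite directions: name 2 minus name 1 was -1.85 in TTF-derived ieSCs and 1.21 in MEF-derived ieSCs. Arrays that share a name differed by at most 0.32.

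The Akr1c18 promoter is shown because its gene had the largest rise of the set. It is the 250 bases before the start on the minus strand of chromosome 13 (RefSeq, GRCm38.p6), with its GC box in capitals, 73 bases before the start.
Akr1c18 (chr13:4150647-4150896): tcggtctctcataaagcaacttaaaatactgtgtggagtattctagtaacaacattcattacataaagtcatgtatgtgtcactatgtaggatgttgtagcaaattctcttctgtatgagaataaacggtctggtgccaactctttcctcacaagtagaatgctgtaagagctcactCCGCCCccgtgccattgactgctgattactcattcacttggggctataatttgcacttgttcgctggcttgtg
The window holds none of the Nr5a1, GATA and SOX letters searched, and its GC content is 41.6%.

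**Figure D3:**
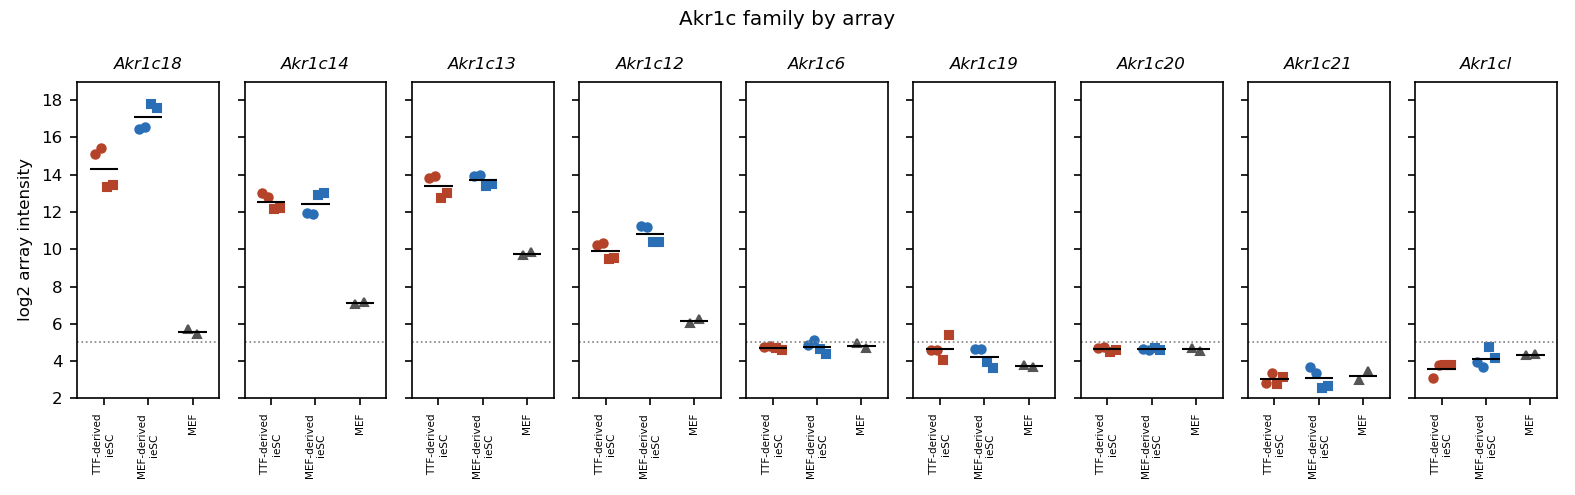
Log2 array intensity (vertical axis) of 9 Akr1c genes on each array, with TTF-derived ieSCs in red, MEF-derived ieSCs in blue and MEFs in grey; circles are name 1, squares name 2, black lines group means and the dotted line the 40th percentile. Akr1c18, Akr1c14, Akr1c13 and Akr1c12 are higher on all 8 ieSC arrays than on both MEF arrays, and the other 5 lie near or under the dotted line.

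The relatives of Akr1c18 fell into genes that were higher in ieSCs and genes that did not pass the filter, as the plot of the Akr1c genes shows. Akr1c14, which reduces dihydrosteroids such as dihydroprogesterone, averaged 12.56 ± 0.43 in TTF-derived ieSCs and 12.44 ± 0.59 in MEF-derived ieSCs (SD, n = 4 each), against 7.13 ± 0.04 in MEFs (n = 2). Its rise was 5.37 ± 0.34 over both kinds of ieSC (limma adjusted p = 1.36e-06), and the kinds of ieSC did not differ past the threshold (0.11 ± 0.31, adjusted p = 0.828). Akr1c12 was higher in ieSCs than in MEFs by 4.19 ± 0.32 (adjusted p = 4.75e-06) and Akr1c13 by 3.79 ± 0.31 (adjusted p = 8.18e-06). Akr1c12 was lower in TTF-derived than in MEF-derived ieSCs, with a difference of -0.91 ± 0.29 (adjusted p = 0.0348), and Akr1c13 gave -0.32 ± 0.28 (adjusted p = 0.437). Akr1c6, Akr1c19, Akr1c20, Akr1c21 and Akr1cl did not pass the filter.

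In RefSeq the cluster on chromosome 13 runs Akr1c14, Akr1c18, Akr1c13, Akr1c19, Akr1c12, Akr1c6, Akr1c20 and Akr1c21. The 4 genes that were higher lie among the 5 at one end of it, with Akr1c19, which did not pass the filter, between them. These genes are similar in sequence, and whether a feature also binds a relative's transcript was not tested. Of 14 aldo-keto reductase genes listed apart from Akr1c18, 7 were tested. Of these 7, 5 were higher in ieSCs than in MEFs and 2 did not pass, while 27.3% of all genes were higher. The median difference of the 7 was 1.35, against 0.09 over all genes. Akr1b10, a reductase of aldehydes and retinal, was higher by 1.35 ± 0.10 (adjusted p = 4.13e-06). Akr1b8 was 1.34 ± 0.11 higher in TTF-derived than in MEF-derived ieSCs (adjusted p = 1.63e-05), the opposite sign from Akr1c18, and Akr1e1 was lower by a difference of -0.32 ± 0.09 (adjusted p = 0.0209).

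**Figure D4:**
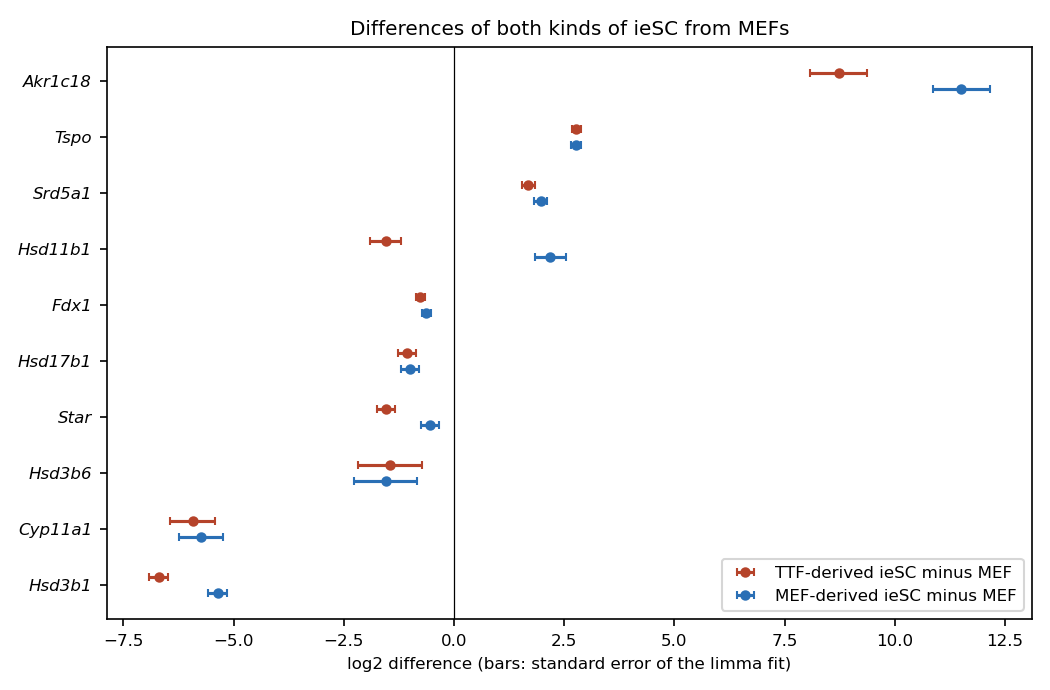
Log2 difference from MEFs (horizontal axis) of the 10 genes in TTF-derived ieSCs (red) and MEF-derived ieSCs (blue); points are limma estimates and bars their SE. Hsd11b1 is on opposite sides of 0 in the 2 kinds of ieSC (-1.55 and 2.19), and the other 9 genes are on the same side in both.

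The remaining pathway genes were described from lists chosen by role. Of 19 genes of cholesterol supply tested, 3 were higher and 6 lower in ieSCs than in MEFs, with a median difference of 0.01. Over all genes, 27.3% were higher and 24.4% lower in this comparison. Apoe, the lipoprotein that delivers cholesterol to cells, averaged 9.89 ± 0.06 in TTF-derived ieSCs and 9.50 ± 0.31 in MEF-derived ieSCs (SD, n = 4 each), against 15.06 ± 0.03 in MEFs (n = 2), a difference of -5.37 ± 0.17 (limma adjusted p = 1.92e-08). The lipoprotein receptor gene Lrp1 was lower by a difference of -1.60 ± 0.19, while Stard5, of the same lipid transfer family as Star, was higher by 1.70 ± 0.20 and Lipe, the hormone-sensitive lipase, by 1.57 ± 0.22. Between TTF-derived and MEF-derived ieSCs, Stard6 was lower (-1.61 ± 0.23, adjusted p = 0.000549) and Scarb1, the receptor for high-density lipoprotein, was higher (0.68 ± 0.11, adjusted p = 0.000984).

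Of 9 mitochondrial and microsomal P450 enzymes and partners tested, 3 were higher and 1 lower in ieSCs, with a median of 0.89. The shares among all genes were 27.3% and 24.4%. Cyp27a1, a mitochondrial sterol hydroxylase, was higher in ieSCs by 3.0 ± 0.23 (adjusted p = 5.30e-06), with a MEF level of 4.90 ± 0.35 (SD, n = 2; limma) that was dim on 1 of the 2 arrays. Cyb5a, cytochrome b5, was higher by 1.64 ± 0.15 and its reductase Cyb5r3 by 1.05 ± 0.20, whereas Fdx2, a ferredoxin of iron-sulfur cluster assembly, was lower by a difference of -0.57 ± 0.10. Cyp11b1, known from adrenal corticosterone synthesis, averaged 6.13 ± 0.72 in TTF-derived ieSCs and 9.55 ± 0.31 in MEF-derived ieSCs (SD, n = 4 each), against 8.05 ± 0.06 in MEFs (n = 2). Its difference of -3.42 ± 0.35 between the kinds of ieSC (limma adjusted p = 7.98e-05) gave the same order of groups as Hsd11b1.

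Of 13 further genes of the Hsd17b and Hsd11b families tested, 5 were higher and 3 lower in ieSCs, with a median of 0.30. Among all genes the shares were 27.3% and 24.4%. Hsd17b2, among the higher ones, was dim on both MEF arrays and entered the test through ieSC arrays only. Hsdl1 was higher by 1.10 ± 0.19 and Hsdl2 in MEF-derived ieSCs by 1.37 ± 0.16, while Hsdl2 in TTF-derived ieSCs gave 0.32 ± 0.16 (adjusted p = 0.149), and the retinal reductase Rdh11 was lower by a difference of -0.63 ± 0.13. Hsd17b7, which also works in cholesterol synthesis, averaged 9.25 ± 0.08 in TTF-derived ieSCs and 12.29 ± 0.11 in MEF-derived ieSCs (SD, n = 4 each), against 10.99 ± 0.07 in MEFs (n = 2), again the order seen for Hsd11b1 (-3.04 ± 0.10 between the kinds of ieSC, limma adjusted p = 8.15e-08). Hsd17b14 had the opposite sign (1.52 ± 0.21, adjusted p = 0.000528). Of 3 other reductases tested, 1 was lower in ieSCs and 2 did not pass. The lower one was Srd5a3, which serves protein glycosylation, by a difference of -0.80 ± 0.12 in TTF-derived ieSCs (adjusted p = 0.000613), with -0.26 ± 0.12 in MEF-derived ieSCs (adjusted p = 0.114).

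Of 6 genes that conjugate steroids, 2 were higher and 1 lower in ieSCs, beside 27.3% higher and 24.4% lower over all genes. The lower one, Sult1e1, the estrogen sulfotransferase, was dim on all 8 ieSC arrays, against 8.11 on both MEF arrays, through which alone it entered the test. Ugt1a6a, a glucuronosyltransferase, was higher by 1.90 ± 0.17 and Sult2b1, which sulfates cholesterol and related steroids, by 1.68 ± 0.18. Of 12 steroid receptor genes tested, 1 was higher and 3 lower, with a median of 0.02. Pgr, the progesterone receptor, averaged 2.99 ± 0.29 in TTF-derived ieSCs and 3.40 ± 0.39 in MEF-derived ieSCs (SD, n = 4 each), all dim, against 5.54 ± 0.06 in MEFs (n = 2), and it too entered the test through the MEF arrays only. Esr1 was higher by 1.17 ± 0.12, Esr2 was lower by a difference of -0.87 ± 0.18 and the membrane estrogen receptor gene Gper1 by -2.86 ± 0.30. The membrane progestin receptor genes Paqr6 (1.08 ± 0.17) and Paqr7 (0.62 ± 0.11) were higher in TTF-derived than in MEF-derived ieSCs.

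**Figure D5:**
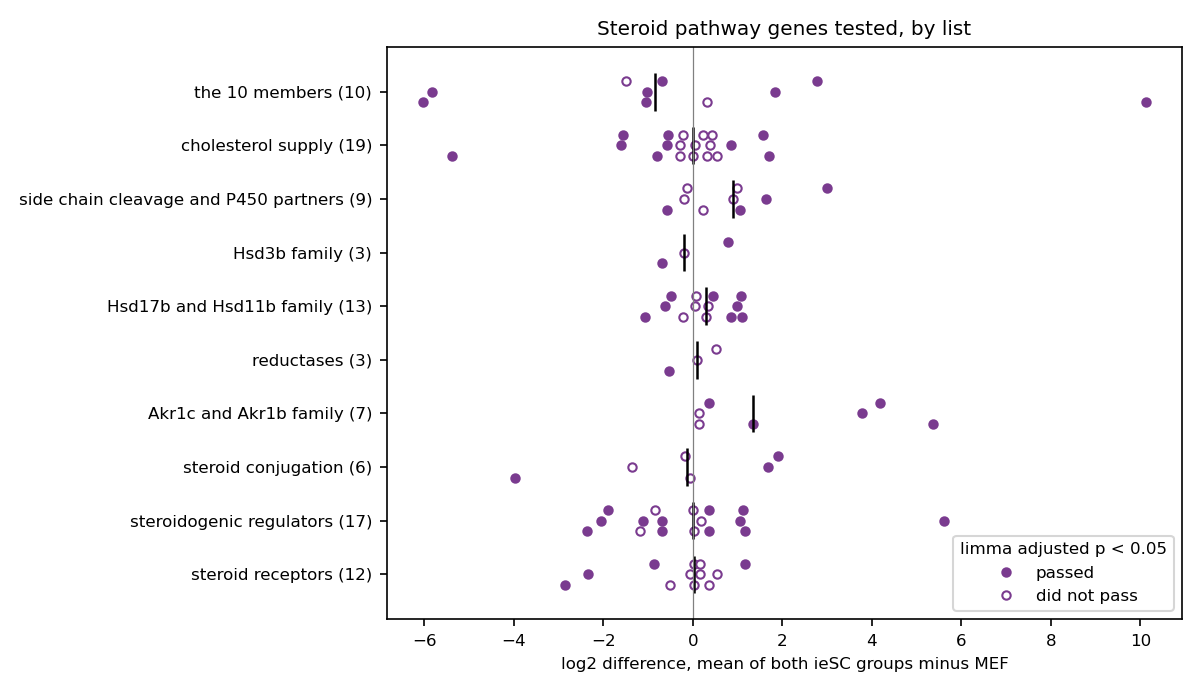
Log2 difference between the mean of both kinds of ieSC and MEFs (horizontal axis) for each tested gene of the 10 genes described here and of 9 lists of related genes, with the number tested in brackets; filled points passed the limma test at adjusted p under 0.05, open points did not, and black ticks are list medians. The medians run from -0.85 for the 10 genes, which include Cyp11a1 and Hsd3b1, tested through the MEF arrays only, to 1.35 for the Akr1c and Akr1b list.

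Among 17 regulators of steroidogenic genes tested, 6 were higher and 6 lower in ieSCs, with a median of 0.00. The shares over all genes were 27.3% higher and 24.4% lower. Of the lower regulators, Mrap, Mc2r and Pde8a entered the test through the MEF arrays only, so only a fall could be called for them. Besides the transgene factors, Crem, a factor of the cyclic AMP response, was higher by 1.13 ± 0.14 and Mrap, the accessory protein of the corticotropin receptor, was dim on all 8 ieSC arrays and lower there than in MEFs. Gata6 averaged 12.84 ± 0.26 in TTF-derived ieSCs and 8.83 ± 0.14 in MEF-derived ieSCs (SD, n = 4 each), against 11.52 ± 0.05 in MEFs (n = 2), a difference of 4.01 ± 0.16 between the kinds of ieSC (limma adjusted p = 1.90e-07). Nr2f2 had the reverse order, with a difference of -1.75 ± 0.14 (adjusted p = 2.07e-05).

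Markers of other steroid-making cells were read beside Cyp11a1 and Hsd3b1. Of 10 Leydig and adrenal markers, 6 were tested, of which 2 were lower in ieSCs and 4 did not pass. The lower ones were Mrap, at 6.71 and 6.76 in MEFs, and the corticotropin receptor gene Mc2r, at 5.70 and 5.51 in MEFs. Both were dim on all 8 ieSC arrays and entered the test through the MEF arrays only, so their count says nothing more of the list. Cyp17a1, which makes androgen precursors, averaged 10.84 ± 0.10 in TTF-derived ieSCs, 11.08 ± 0.07 in MEF-derived ieSCs and 11.09 ± 0.06 in MEFs (SD, n = 4, 4 and 2) and did not pass (limma adjusted p = 0.365). Hsd17b3, the Leydig enzyme that makes testosterone, did not pass the filter. The summed intensity of this list, as log2, ranged from 11.14 to 11.26 in TTF-derived ieSCs, from 11.67 to 11.73 in MEF-derived ieSCs and from 11.44 to 11.50 in MEFs. Bright genes weigh most in such a sum, here Cyp17a1 and then, in MEF-derived ieSCs, Cyp11b1, so it does not stand for the list as a whole. Like Cyp11a1 and Hsd3b1, 9 of 11 fibroblast and 10 of 10 macrophage markers were lower in ieSCs, beside 24.4% of all genes. Of these markers, Fap, Twist1, C1qa, Tyrobp and Laptm5 entered the test through the MEF arrays only, as did Cyp11a1 and Hsd3b1. For such genes only a fall could be called. The part of these cell types in the falls of Cyp11a1 and Hsd3b1 was not tested.

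Akr1c18 itself is a marker of the luteal cell. Of 7 granulosa and luteal markers tested, 1 was higher in ieSCs, Akr1c18, and 3 were lower, beside 27.3% and 24.4% of all genes. The lower ones were Fst (-2.52 ± 0.15), Inhba, and Ptgfr, the receptor for the prostaglandin that ends luteal function. Inhba was lower in TTF-derived ieSCs (-3.06 ± 0.62, adjusted p = 0.00323) and did not pass in MEF-derived ieSCs (-0.11 ± 0.62, adjusted p = 0.907). Ptgfr was dim on all 8 ieSC arrays, against 9.69 and 9.76 in MEFs, through which alone it entered the test, and Fshr did not pass the filter. Of 10 trophoblast markers, 3 were tested, of which Ascl2 was lower in ieSCs (-1.46 ± 0.20). Krt18 was higher in MEF-derived ieSCs (5.39 ± 0.45, adjusted p = 8.13e-06), with 0.26 ± 0.45 in TTF-derived ieSCs (adjusted p = 0.698), and Krt8 was higher in TTF-derived than in MEF-derived ieSCs (3.15 ± 0.62). Elf5, Tpbpa and Cdx2 were dim.

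Genes with the pattern most like that of a gene of the set were found by the root mean square difference of mean-centred log2 levels over the 10 arrays, among 16725 other genes. The measure is not scaled to the size of a gene's differences, so its values are not compared between genes of the set. For Akr1c18 the most alike were Gm2022 (0.82), Gm8300 (0.99), Tlx2 (1.19), BB287469 (1.32) and Cst12 (1.46). For Tspo they were Trim6 (0.09), Apol9a (0.10), Plekha7 (0.11), Gch1 (0.12) and Gpat3 (0.12). For Hsd11b1 they were Col22a1 (0.32), Tchh (0.36), Fgf12 (0.36), Arfgef3 (0.38) and Ambp (0.40). For Cyp11a1 they were Macrod2 (0.37), Tspan11 (0.37), Alox5ap (0.39), Irf8 (0.40) and Igfbp4 (0.41), and for Hsd3b1 Runx1t1 (0.21), Plxnc1 (0.30), Trps1 (0.31), Hoxb9 (0.34) and Fcer1g (0.36), the last of which is on the macrophage list. Gm2022 averaged 12.89 in TTF-derived ieSCs, 16.73 in MEF-derived ieSCs and 6.19 in MEFs, the same order as Akr1c18.

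Names 1 and 2 were also compared for the rest of the set, with no test. Star differed little between names in TTF-derived ieSCs (name 2 minus name 1, -0.02) and by 0.52 in MEF-derived ieSCs. Hsd11b1 differed by -0.40 in TTF-derived and 0.77 in MEF-derived ieSCs. Cyp11a1, among dim values, differed by -1.21 in TTF-derived and 0.47 in MEF-derived ieSCs, and Hsd3b1, also dim, by 0.03 in each. Hsd3b6 differed by 0.89 in TTF-derived and -0.60 in MEF-derived ieSCs. Its arrays of a shared name were up to 1.56 and 0.96 apart. For Tspo, Srd5a1, Fdx1 and Hsd17b1 the names lay within 0.23 of each other in both kinds of ieSC. Of the 10 genes, Akr1c18 had the widest difference between names in both kinds of ieSC.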

How the data were processed

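The authors deposited log2 intensities of 62976 features on 10 Cy3 arrays. Limma is named in the submitters' processing notes, without a version. Above the 40th percentile the sorted values of any 2 columns lie within 0.0379, as after quantile normalization, and the sources used here do not give the background correction. The log base was taken as 2 from the range of values, 0.288 to 19.02. The platform annotation gave 1 gene symbol to 31465 features, none to 31511 and several to 0, with 2933 symbols updated through RefSeq.

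Features above their array's 40th percentile (4.988 to 5.023) on at least 2 arrays were kept, 42617 in all, of which 25200 are named. The brightest kept feature, by its mean over all arrays, stood for each of 16726 genes. Group means were fitted to all 10 arrays with limma 3.58.1 (R 4.3.3, statmod 1.5.0), with the array name as a random block (consensus correlation 0.468, 7 residual degrees of freedom, prior 2.34). Of the residual degrees of freedom 2 lie between names, so adjusted p-values may be too small. Moderated tests were two-sided, with Benjamini-Hochberg adjustment over all kept features and a threshold of 0.05. The number of arrays limits the precision (median SE 0.177 for ieSC against MEF, 0.158 between the kinds of ieSC). The alternatives changed the filter, the floor, the block, the scaling, the prior, the feature that represents a gene and the arrays used.

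Named genes were the features of the 10 genes, up to 4 genes of each list by smallest p for ieSC against MEF and up to 2 more between the kinds of ieSC, the listed Akr1c and Hsd3b genes, the 5 transgene factors and the 5 genes most alike. The genes and lists were chosen with earlier results of these data known. Genes that illustrate a marker check or that are named as dim were named after their values were seen. Promoters came from RefSeq (GRCm38.p6), and windows were aligned with Biopython 1.88.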

Additional observations from a re-analysis of the deposited data

Results flagged for a closer look

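The difference between TTF-derived and MEF-derived ieSCs, which is also the difference between their changes from the same MEF arrays, passed the limma test for 4 of the 10 genes. Over all genes tested, 38.5% passed in the same comparison, a share close to that of the 10 genes. The log2 difference, TTF-derived minus MEF-derived, was -3.73 for Hsd11b1, -2.77 for Akr1c18, -1.34 for Hsd3b1 and -1.0 for Star. Both groups were dim for Hsd3b1, and Akr1c18 and Star did not pass with the arrays of each name averaged. The level of Hsd3b6 on TTF-derived array 2a, 5.14, stood far from the other 3 arrays of its group, which read 3.36 to 3.58. Chance marks about 1 in 20 groups in this way.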

How the results depend on the processing

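Over 27 alternative settings, 747 of 751 values of the 29 differences called among the 10 genes kept their direction and their side of the threshold. With the 2 arrays of each name averaged, which leaves 5 values in the fit, 3 lost the call: Hsd11b1 in TTF-derived ieSCs against MEFs (adjusted p = 0.0588) and, between the kinds of ieSC, Star (adjusted p = 0.0566) and Akr1c18 (adjusted p = 0.0916). The remaining one was Hsd3b1 between the kinds of ieSC, which was 0.001 with dim values raised to the 40th percentile. Averaging gave 12538 features called for ieSC against MEF (19005 as reported), 10417 for TTF-derived ieSCs against MEFs (17255) and 5276 between the kinds of ieSC (14414). With 1 feature per gene, fewer were tested, and 8282, 8559, 7544 and 6023 were called for ieSC against MEF, MEF-derived ieSCs against MEFs (19724 as reported), TTF-derived ieSCs against MEFs and the kinds of ieSC.

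Values that did not pass changed sign between the kinds of ieSC as follows, in log2 units. Tspo was -0.056 without MEF-derived name 1, -0.102 without TTF-derived name 2 and between -0.022 and 0.019 with 1 array left out. Cyp11a1 was 0.001 with dim values raised, 0.402 without TTF-derived name 2, 0.030 without MEF-derived name 2 and between -0.331 and 0.012 with 1 array left out. Hsd3b6 was -0.340 without TTF-derived name 2, -0.193 without MEF-derived name 2 and between -0.292 and 0.385 with 1 array left out, and Hsd17b1 was 0.033 without MEF-derived name 2. The cause was not tested. Of 287 values of differences that did not pass, 17 came to pass: Hsd3b6 against MEFs, for instance, without TTF-derived array 2a (-1.70, adjusted p = 0.0153), and Star in MEF-derived ieSCs as the mean of both features (-0.73, adjusted p = 0.0116). Srd5a1 passed between the kinds of ieSC without MEF-derived name 1 (-0.40, adjusted p = 0.0431).

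With the number 1 or 2 as a replicate block, 19629 features were called between the kinds of ieSC and Srd5a1 passed (adjusted p = 0.0348), and no other call among the 10 genes changed. The samples share only a number: the labels do not say that it marks a batch, and name 1 minus name 2 correlated at 0.273 between the kinds of ieSC over 42617 features. Without 1 MEF array, the lone MEF array is assumed to vary like the other groups. Signal near the floor limits Cyp11a1, Hsd3b1, Hsd3b6 and the MEF level of Akr1c18.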
